A study of Mus musculus with 2 samples.

Results

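The p53 target genes described here are 30 listed mouse genes, taken by symbol from the 32285 genes counted in 2 single-cell libraries with no threshold on a measured value. The libraries hold immune cells of lymph nodes from C57BL/6 mice: 1 from wild-type animals (WT) and 1 from animals that carry a conditional Rpa1 knockout (CKO). Rpa1 encodes the large subunit of the replication protein A complex, which binds and protects exposed single strands of DNA at replication forks and breaks. Which Cre recombinase drove the deletion, which exons it removes, and the number, age and sex of the mice are not given in the sources used here. Cells were sorted into classes by raw counts of unique molecular identifiers (UMIs, one per captured transcript). T cells had at least 2 UMIs of Cd3d, Cd3e and Cd3g together and none of Cd79a. B cells had at least 2 UMIs of Cd79a and none of Cd3e. Cells of either class with at least 2 UMIs of Mki67 and Top2a together were called cycling and kept apart.

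The transcription factor p53 is held low by the ubiquitin ligase Mdm2 and is stabilised when kinases of the damage response act on it. It then switches on genes that stop the cell cycle (Cdkn1a), promote death (Pmaip1, Bbc3, Bax), repair DNA (Xpc, Polk) or restrain p53 itself (Mdm2, Ccng1). In thymocytes and lymphocytes the pathway is known for removing cells with broken DNA or stalled replication forks.

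The gates held 7497 WT and 3434 CKO non-cycling T cells, 2698 and 7239 non-cycling B cells, 217 and 98 cycling T cells, and 56 and 86 cycling B cells. The 7 T markers summed to 5495 and 5492 CPM (counts per 1000000 UMIs of a class) in WT and CKO non-cycling T cells and to 62.0 and 36.8 CPM in B cells. The 8 B markers summed to 23274 and 19884 CPM in B cells and to 54.1 and 102 CPM in T cells. Genes of the gates are among these markers, so the gates fix part of these levels. The WT library held 84813609 UMIs in 12769 barcodes and the CKO library 76200586 in 13754, and 56 barcode sequences occurred in both. Median depth was 6274 and 5738 UMIs per non-cycling T cell, 4020 and 3862 per B cell, 10804 and 12223 per cycling T cell, and 14317 and 7165 per cycling B cell, WT and CKO in each case. Counts of a class were summed and scaled to the class total, in CPM. With 1 library per genotype no difference has a replicate check and no test between genotypes is possible. The 95% intervals below are exact and cover counting error only.

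The Rpa1 level in non-cycling T cells was 39.1 CPM for WT and 24.4 CPM for CKO, which gives a CKO over WT ratio of 0.623 (0.564 to 0.687). The ratio was 0.520 (0.440 to 0.613) in Cd4-positive and 0.713 (0.549 to 0.913) in Cd8b1-positive T cells, and 0.894 (0.803 to 0.996) in B cells. In cycling T cells the Rpa1 levels were 62.5 and 54.4 CPM, with a ratio of 0.870 and an interval from 0.660 to 1.14, which includes 1. Counts of 3′ ends do not show whether the remaining transcripts carry the deletion.

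The binding element of p53 consists of a pair of 10-base motifs, the p53 decamer, with 0 to 13 bases between them. RefSeq promoter windows on GRCm38.p6, from 250 bases before to 50 bases after an annotated start, were found for 24 of the 30 members, 31 windows in all. The decamer, which reads alike on both strands, was present without a mismatch in 35.5% of the members' windows and in 8.36% of all 32851 windows. A whole element with at most 1 mismatch was present in 12.9% of the members' windows, those of Cdkn1a, Ccng1, Rps27l and Polk, and in 1.09% of all windows. These windows are printed because they hold the elements of 4 genes described below, and the window of Bax because this target, outside the 30, is described with them. Capitals mark the decamers of each element and lower case the bases around them.
Cdkn1a: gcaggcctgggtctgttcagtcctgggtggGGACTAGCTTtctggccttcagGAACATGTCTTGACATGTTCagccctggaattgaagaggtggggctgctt
Ccng1: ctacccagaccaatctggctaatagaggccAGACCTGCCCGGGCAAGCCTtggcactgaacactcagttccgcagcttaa
Rps27l: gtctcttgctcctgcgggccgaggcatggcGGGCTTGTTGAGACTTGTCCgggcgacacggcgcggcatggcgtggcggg
Polk: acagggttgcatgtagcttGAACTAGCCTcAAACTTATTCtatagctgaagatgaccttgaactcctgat
Bax: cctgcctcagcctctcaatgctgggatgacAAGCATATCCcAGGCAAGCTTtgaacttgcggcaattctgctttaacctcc
Each is read 5′ to 3′ on the strand of its gene, from chr17:29090876-29090977 (plus strand), chr11:40755432-40755511 (minus), chr9:66946266-66946345 (plus), chr13:96519368-96519437 (minus) and chr7:45467060-45467140 (minus). The Cdkn1a stretch holds 3 decamers and was the only member window with an element free of mismatches, which 0.0731% of all windows had. Its first and second decamers form that element, and its second and last form an element with 1 mismatch. No element with at most 1 mismatch was found in the windows of Mdm2, Phlda3 or Pidd1, which says only that these letters are not in these windows.

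In non-cycling T cells the p53 targets abundant enough to be measured lay within 1.5-fold of their WT level. Of the 30 members 16 were measured, meaning a mean of at least 5 CPM over both libraries and at least 25 UMIs in all. None of the 16 was 1.5-fold higher in CKO, where 2.28% of all 8623 genes measured were, and none was 1.5-fold lower, where 0.986% were. Their median log2 ratio was 0.10 beside 0.07 for all genes, and their summed level went from 587 CPM (WT) to 639 CPM (CKO), with a ratio of 1.09 (1.07 to 1.11). That ratio was 1.04 when the T cell subsets were given equal weight in both libraries, and 1.03 when the median gene was set to a ratio of 1. With that last scaling 1.73% of all genes were higher and 1.19% lower, and none of the 16 was past the fold.

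Among the genes that act back on p53, Mdm2, its main ubiquitin ligase, was at 37.9 and 40.1 CPM, a ratio of 1.06 (0.973 to 1.15). Ccng1, the cyclin G1 gene, had a ratio of 0.959, Trp53inp1, a nuclear cofactor of p53, 1.18, and Zmat3, an RNA-binding protein gene, 1.24. Each of these 4 lay within 1.5-fold of WT. Among the arrest genes, Btg2, an antiproliferative gene, had a ratio of 1.09 and Gadd45a, a stress sensor, one of 0.707 (0.563 to 0.883), the lowest of the 16. Cdkn1a, whose product p21 inhibits cyclin-dependent kinases, was below the minimum level, with 36 UMIs in WT and 44 in CKO, a ratio of 2.93 (1.84 to 4.68). Also below it were Phlda3 at 2.01 (1.20 to 3.32), Psrc1 at 2.91 (1.35 to 6.37) and Pmaip1 at 1.48 (1.11 to 1.96). Of the measured death genes, Fas, a death receptor, Aen, a nuclease, and Ei24, an endoplasmic reticulum protein gene, had ratios of 1.12, 1.11 and 0.930. The repair genes Polk, a translesion polymerase, Ercc5, an excision nuclease, and Xpc, a damage sensor, had ratios of 1.30, 1.02 and 0.953, and Polk (1.11 to 1.52) was the highest of the 16. The remaining measured members, Sesn1, Tigar, Plk3 and Rps27l, lay between 0.913 and 1.16.

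The split by receptor genes gave few members past 1.5-fold. In Cd4-positive T cells 16 members were measured and none was past the fold in either direction (1.78% of all genes were higher and 1.82% lower). In Cd8b1-positive T cells 1 of 15 was higher, Fas at 17.0 and 27.8 CPM, a ratio of 1.64 (1.27 to 2.09), where 4.65% of all genes were (2.08% were lower). The 15 had a median log2 ratio of 0.28 there, beside 0.10 for all genes. In Foxp3-positive T cells 2 of 13 were higher, Zmat3 at 1.79 (0.778 to 4.26) and Polk at 1.64 (0.727 to 3.79), with 6.64% of all genes higher and 10.4% lower. Both intervals include 1. In Trdc-positive T cells 1 of 14 was lower, Fas at 0.638 (0.406 to 1.02), with 5.53% of all genes lower and 10.0% higher. In T cells left undecided by these genes 2 of 16 were lower, Tigar at 0.622 (0.377 to 0.994) and Gadd45a at 0.604 (0.362 to 0.973), with 2.44% of all genes lower and 2.62% higher.

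In non-cycling B cells 16 members were measured, none of them past 1.5-fold in either direction, as were 0.725% (higher) and 0.598% (lower) of all 8689 genes. The median log2 ratio was 0.02 beside 0.03 for all genes. With the median gene set to a ratio of 1 these shares were 0.542% and 0.680%, and again no member was past the fold. Summed over the members, WT stood at 643 CPM and CKO at 654 CPM, for a ratio of 1.02 (0.992 to 1.05). Mdm2 had a ratio of 1.09 (0.978 to 1.21), Pmaip1, which encodes the death inducer Noxa, 1.09, and Sesn1, a stress-response gene, 0.888 (0.803 to 0.983), the lowest of the 16.

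In cycling T cells 22 members were measured, 8 were at least 1.5-fold higher in CKO and 2 at least 1.5-fold lower. Of all 8802 genes measured there, 10.2% were higher and 8.94% lower. Of the 8, Cdkn1a, Phlda3 and Pidd1 reached the mean of 5 CPM only through the CKO library and so had to differ. Pmaip1, Psrc1 and Tigar, with 16, 17 and 21 UMIs in WT, reached the 25 UMIs only with those of CKO. Among the 19 members at 5 CPM or more in WT, 5 were higher and 2 lower, where 9.27% and 9.04% of such genes were. The 25 UMIs were still counted over both libraries, and of these 5 only Mdm2 and Aen reached them in WT alone. With ribosomal and mitochondrial genes left out of the totals the shares of all genes were 8.27% and 11.1%, and 8 members were higher and 3 lower. The 22 had a median log2 ratio of 0.40 beside 0.04 for all genes. Summed over the 30 members, WT stood at 801 CPM and CKO at 1114 CPM, for a ratio of 1.39 (1.30 to 1.48).

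**Figure D1:**
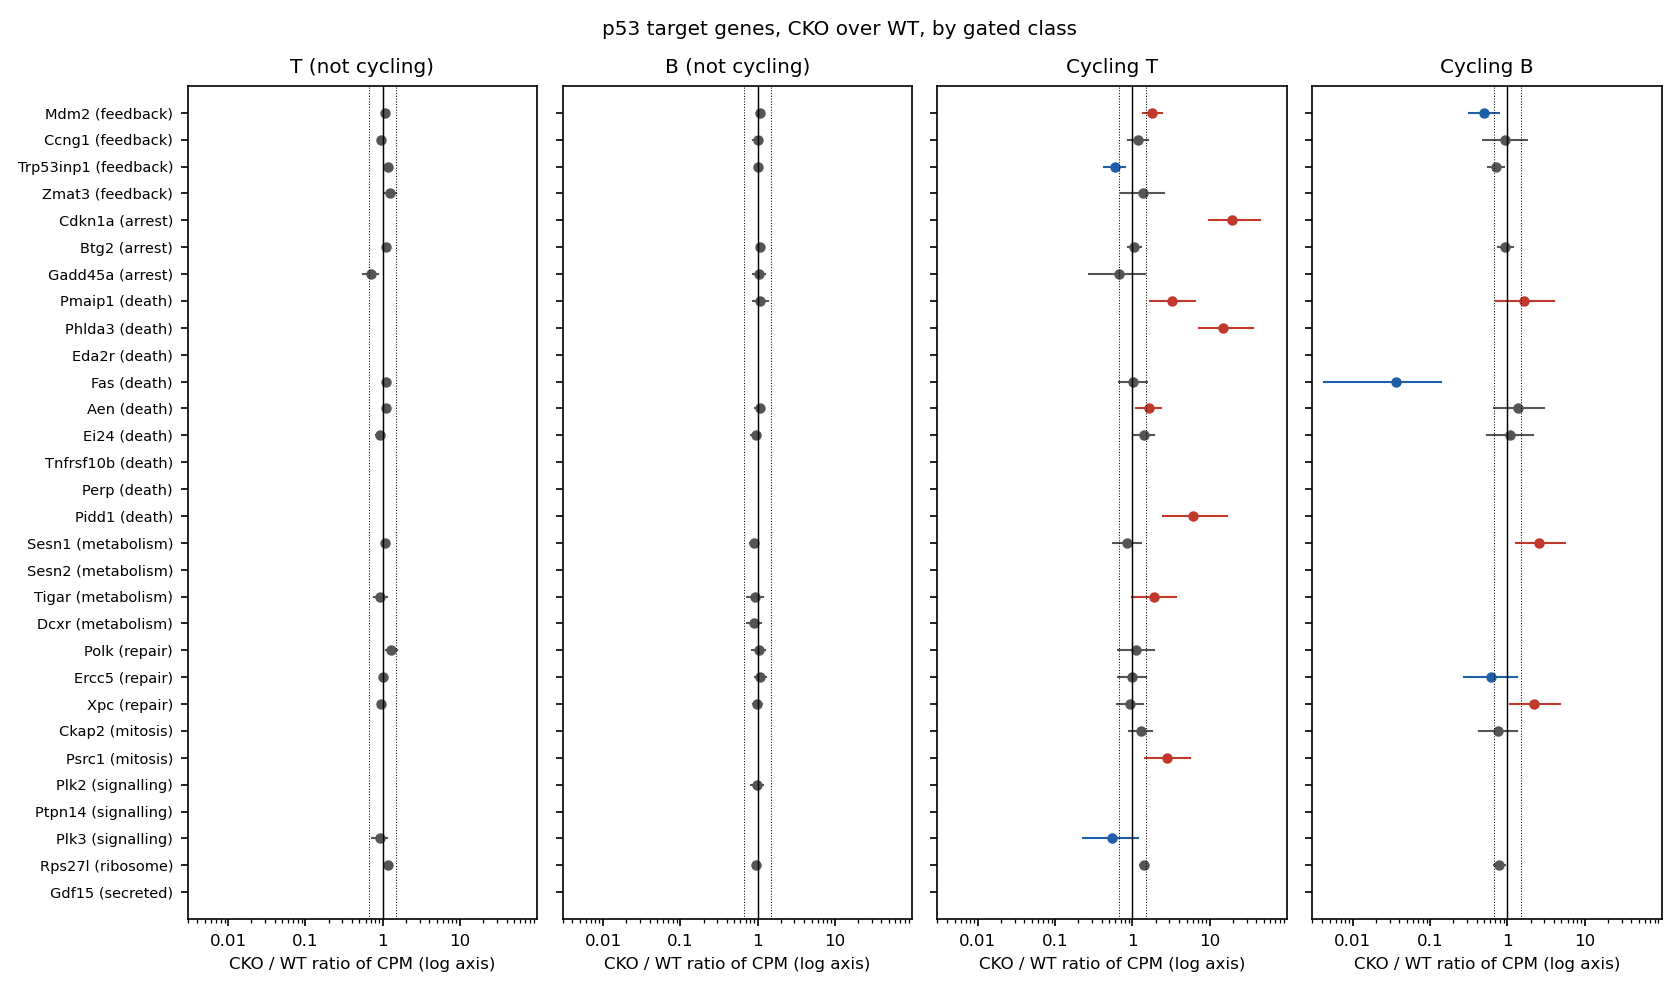
CKO over WT ratio of CPM (log axis) for each measured member in 4 gated classes, ordered by role. Points are ratios from 1 library per genotype, bars exact 95% intervals for counting error, dotted lines 1.5-fold in each direction, red points higher and blue points lower. Members without a point were below the minimum level. All points lie within the dotted lines in non-cycling T and B cells, and Cdkn1a and Phlda3 lie farthest to the right in cycling T cells, at 19.6 and 15.0.

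The arrest gene Cdkn1a (chromosome 17, 29090976 to 29100727) had 9 UMIs in the 217 WT and 88 UMIs in the 98 CKO cycling T cells. That is 3.09 and 60.6 CPM, a ratio of 19.6 (9.87 to 44.3). The other arrest genes were not past the fold: Btg2 had a ratio of 1.06 and Gadd45a one of 0.668 (0.277 to 1.46).

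Of the death genes, Phlda3 (chromosome 1, 135766119 to 135769136), which encodes an inhibitor of Akt, went from 8 to 60 UMIs, or 2.75 to 41.3 CPM, a ratio of 15.0 (7.16 to 36.4). Pidd1 (chromosome 7, 141438113 to 141444025), the scaffold that activates caspase-2, had 7 and 21 UMIs and a ratio of 6.02 (2.46 to 16.8). Pmaip1 had 16 and 26 UMIs and a ratio of 3.26 (1.68 to 6.50), and Aen 67 and 54 UMIs and a ratio of 1.62 (1.11 to 2.35). Ei24 stayed under the fold at 1.41 (1.03 to 1.91), and Fas stood at 1.02 (0.665 to 1.53).

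Of the feedback genes, Mdm2 (chromosome 10, 117688875 to 117710758) had 108 UMIs in WT and 97 in CKO, 37.1 and 66.8 CPM, a ratio of 1.80 (1.35 to 2.39). Ccng1 and Zmat3 had ratios of 1.17 and 1.36 with intervals that include 1. Trp53inp1 went the other way, with 197 and 58 UMIs and a ratio of 0.590 (0.433 to 0.795). The remaining members past the fold were Psrc1, a spindle protein gene, at 2.83 (1.46 to 5.61), Tigar, a regulator of sugar metabolism, at 1.91 (0.982 to 3.70), and, on the lower side, the kinase gene Plk3 at 0.547 (0.230 to 1.17). The intervals of Tigar and Plk3 include 1.

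The repair genes Polk, Ercc5 and Xpc had ratios of 1.12, 0.989 and 0.934, each with an interval that includes 1. Rps27l, which encodes a ribosomal protein variant, had a ratio of 1.40, with an interval above 1 that reaches 1.56. Its counts are uncertain, because its near-identical relatives Rps27 and Rps27rt, with ratios of 0.901 and 0.556, can share reads with it. Below the minimum level, Plk2, a polo-like kinase gene, had 2 UMIs in WT and 20 in CKO, a ratio of 20.1 (4.87 to 177). Sesn2 had 5 and 12 UMIs, a ratio of 4.81 (1.58 to 17.4). Eda2r, an ectodysplasin receptor gene, had no UMI in any class, and Gdf15, Perp, Tnfrsf10b and Ptpn14 had at most 4 UMIs in either library of cycling T cells.

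These counts came from few cells. The 88 Cdkn1a UMIs of the CKO library lay in 8 of its 98 cycling T cells, with 25, 25, 20, 7, 5, 3, 2 and 1 UMIs, so that 3 cells held 79.5% of them. In WT 2 of 217 cycling T cells held Cdkn1a, with 8 UMIs and 1 UMI. The Phlda3 UMIs of the CKO library were likewise concentrated, with 73.3% of them in 3 cells. Mdm2 was spread more widely, over 46 of 98 CKO and 72 of 217 WT cells, with 23.7% and 10.2% in the leading 3. Pidd1 UMIs lay in 17 of 98 CKO and 7 of 217 WT cells, at most 2 in 1 cell.

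A share of cells depends on their depth. With each cell thinned to 2000 UMIs, 4 of 98 CKO cycling T cells (4.08%, 1.12 to 10.1) and 0 of 216 in WT held Cdkn1a, and the WT count allows up to 1.39% of cells with a UMI. One WT cell was too shallow and left out. Over all possible draws of the thinning the mean number of cells with Cdkn1a was 4.76 in CKO and 0.934 in WT. For Phlda3 these means were 3.85 and 0.865, whereas the draw used gave 0 and 1 cells. Without thinning the shares for Cdkn1a were 8.16% and 0.922%. In non-cycling T cells the thinned share with Cdkn1a was 0.0670% in WT and 0.176% in CKO. The shares in B cells were 0.150% and 0.239%, and no difference between the classes or libraries is read from shares this low.

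The 8 CKO cells with Cdkn1a were compared with the other 90 CKO cycling T cells, a split chosen after the values were seen. Summed over the other 29 members, the 8 cells ranged from 712 to 5641 CPM with a median of 3642. The 90 cells ranged from 0 to 1501 CPM with a median of 720, and the 215 WT cells without Cdkn1a had a median of 741 CPM. The 2 WT cells with Cdkn1a had 483 and 1398 CPM, inside the range of the other WT cells, 0 to 1937 CPM. The ratio of cells with to cells without Cdkn1a was 4.65 (4.17 to 5.19) in CKO and 1.24 (0.787 to 1.87) in WT. The WT ratio rests on 2 cells. In them Pmaip1 (4 UMIs, 41.5-fold, 9.75 to 137), Mdm2 (4 UMIs, 4.78-fold, 1.28 to 12.6) and Plk3 (3 UMIs, 12.4-fold, 2.43 to 40.0) were higher. All 4 Mdm2 UMIs and 3 of the 4 Pmaip1 UMIs lay in the cell with 8 Cdkn1a UMIs, and the intervals do not cover differences between cells. Rps27l had 0 UMIs in the 2 WT cells, with an interval of 0 to 0.600. The WT intervals of the other members with a UMI include 1. The CKO ranges overlap through 2 of the 8 cells, those with 2 UMIs and 1 UMI of Cdkn1a. The other 6 cells all lay above every CKO and WT cell without Cdkn1a.

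**Figure D2:**
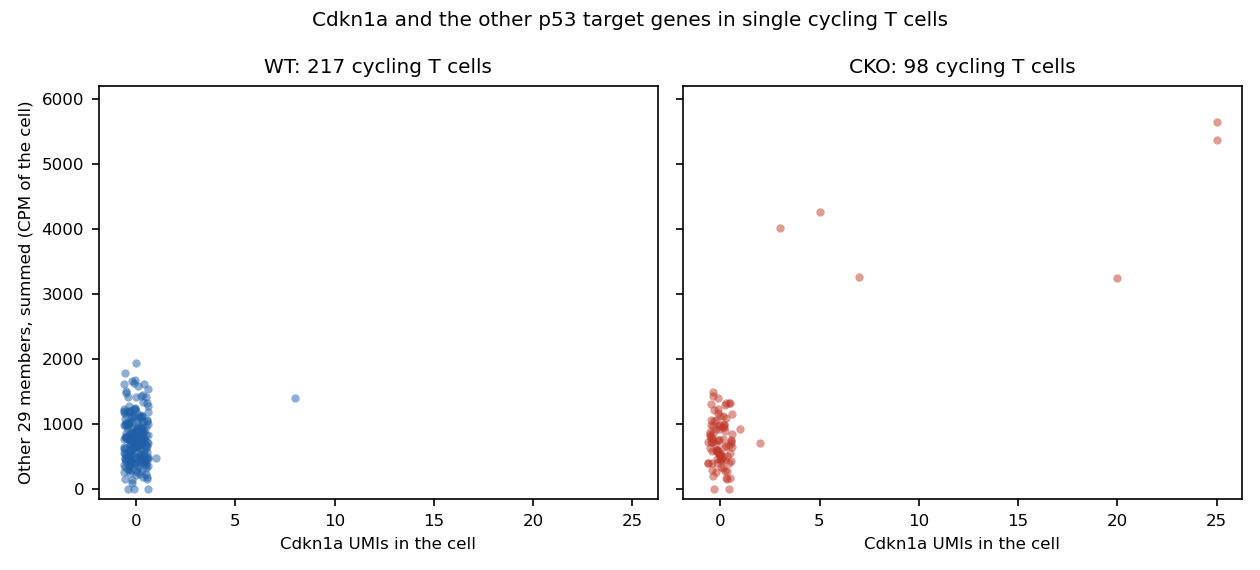
Each point is 1 cycling T cell, with its Cdkn1a UMIs on the horizontal axis (cells at 0 are spread sideways for visibility) and the summed level of the other 29 members in CPM of that cell on the vertical axis, WT left and CKO right. Cells without Cdkn1a reach 1937 CPM in WT and 1501 CPM in CKO, and the highest CKO cell with Cdkn1a reaches 5641 CPM.

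Of the other 29 members 14 were measured in this split. Of these, 9 were at least 5-fold higher in the 8 cells, where 1.20% of all 6167 genes measured were, and none was 5-fold lower (1.78% of all genes). At 1.5-fold 11 were higher (20.2% of all genes) and 1, Sesn1, was lower (29.4%). Among the 9, Phlda3, Pmaip1, Fas and Ercc5, with 60, 26, 37 and 37 UMIs in all, reached 25 UMIs only through the 8 cells. The median log2 ratio of the 14 was 2.57 beside -0.12 for all genes.

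Gene by gene, 57 of the 60 Phlda3 UMIs lay in the 8 cells, 436 CPM against 2.27 CPM in the other 90, a ratio of 192 (62.5 to 959); Phlda3 passed the minimum level only through the 8 cells. Psrc1 was at 161 and 2.27 CPM (ratio 70.8, 21.1 to 371) and Plk2 at 122 and 3.03 CPM (40.5, 13.1 to 166). Both are among the sparse members, with 24 and 20 UMIs in all. The feedback genes were higher together: Ccng1 12.6-fold (7.75 to 20.5), Trp53inp1 5.74-fold (3.19 to 10.1), Mdm2 5.71-fold (3.66 to 8.78) and Zmat3 13.9-fold. Zmat3, with 19 UMIs in all, was below the minimum level. Trp53inp1 was lower in CKO than WT over the whole class and yet higher in these cells than in the other CKO cells. Among cycling T cells without Cdkn1a, the CKO over WT ratio was 0.577 for Ccng1, 0.415 for Trp53inp1, 0.625 for Zmat3 and 1.30 for Mdm2. For Ccng1, Trp53inp1 and Zmat3 the folds above therefore also hold a low level in the 90 cells.

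The death genes Pmaip1, Aen, Ei24 and Fas were 10.1-fold, 9.39-fold, 6.38-fold and 6.16-fold higher in the 8 cells. Pidd1 differed less, with 6 of its 21 UMIs in them, a ratio of 4.05 (1.29 to 11.0). The repair genes divided: Polk was 9.27-fold (3.71 to 23.0) and Ercc5 6.90-fold higher (3.33 to 13.9), whereas Xpc had 0 UMIs in the 8 cells and 41 in the 90, an interval of 0 to 0.952. Polk and Pidd1, with 23 and 21 UMIs in all, were below the minimum level. Sesn1 had 1 and 34 UMIs, a ratio of 0.297 with an interval up to 1.77. Ckap2, a spindle gene, was alike in both at 1.03 (0.321 to 2.58).

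**Figure D3:**
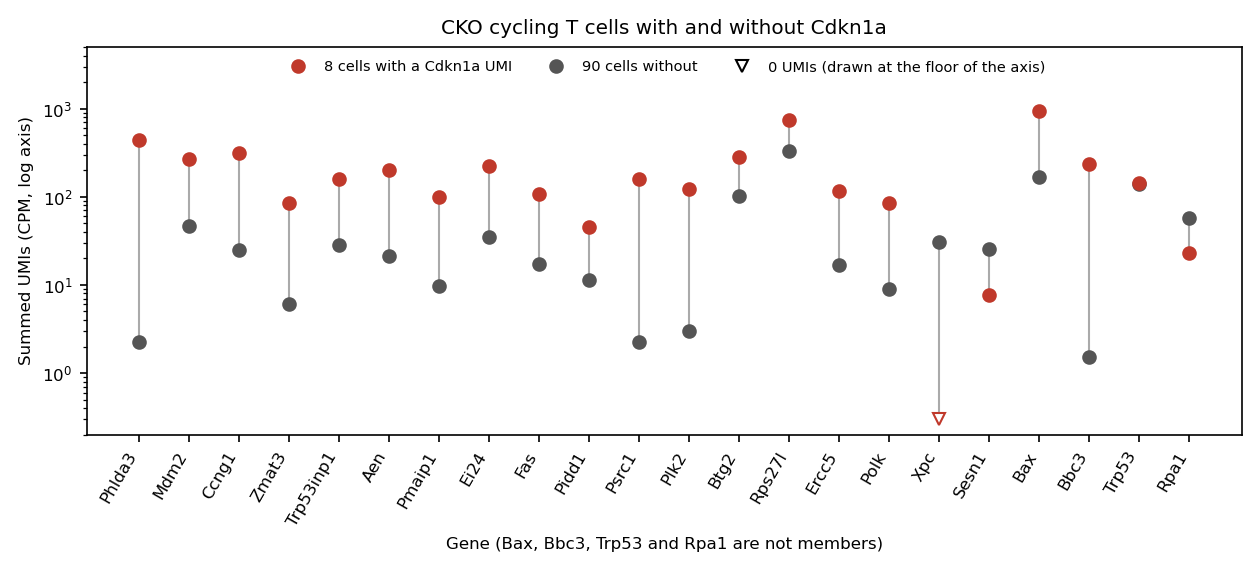
Summed UMIs in CPM (log axis) of named members and 4 other genes in the 8 CKO cycling T cells with a Cdkn1a UMI (red) and the 90 without (grey). Most members lie higher in red, with Phlda3 at 436 and 2.27 CPM, Trp53 lies at 145 and 141 CPM, and Xpc had no UMI in the 8 cells.

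Of 26 listed p53 targets outside the 30, only Bax and Bbc3 are described singly for this split, and both were higher in the 8 cells. They do not stand for that list. Bax, a pore-forming death effector named after its values were seen, had 122 UMIs in the 8 cells and 220 in the 90, a ratio of 5.61 (4.46 to 7.03). Bbc3, which encodes Puma, had 31 and 2 UMIs, a ratio of 157 (39.9 to 1352), and passed the minimum level only through the 8 cells. Its level was 237 CPM in the 8 cells and 1.51 CPM in the 90. The 215 WT cycling T cells without Cdkn1a had 13.8 CPM of Bbc3. The Bbc3 ratio therefore also holds a low level in the 90 cells. Trp53, the gene of p53 itself, was at 145 and 141 CPM, a ratio of 1.03 (0.608 to 1.66), and its inhibitor Mdm4 at 222 and 87.7 CPM, 2.53 (1.62 to 3.83). Rpa1 had 3 UMIs in the 8 cells and 76 in the 90, a ratio of 0.399 with an interval of 0.0805 to 1.21.

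Over whole cycling T cells, 18 of 26 other p53 targets were measured, with 5 at least 1.5-fold higher in CKO and 1 lower, beside 10.2% and 8.94% of all genes. The higher ones were Gtse1 (2.46), Mgmt (1.91), Bbc3 (1.65), Bax (1.64, 1.41 to 1.89) and Trp53i11 (1.63), and the lower one was Sesn3 (0.573). Of 26 genes of p53 and its regulators 25 were measured, with none lower and 3 higher, close to the 10.2% of all genes: the checkpoint kinase gene Chek1 (2.38, 1.73 to 3.29), the deacetylase gene Sirt1 (1.89) and Chek2 (1.62, 0.866 to 2.99), the last named after its value was seen. Trp53 had a ratio of 1.05 and Mdm4 one of 1.03. In non-cycling T cells none of 23 measured regulators was past the fold, and of 17 other targets 1 was lower, Bbc3 at 0.592, where 2.28% of all genes were higher and 0.986% lower.

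By receptor genes, the 8 CKO cells with Cdkn1a comprised 4 of the 21 Cd4-positive, 3 of the 27 Cd8b1-positive and 1 of the 9 cycling T cells with both. None of the 31 Trdc-positive CKO cycling T cells held Cdkn1a, a count that allows up to 9.68% of cells with a Cdkn1a UMI. That count sets no limit on cells expressing the gene. Nor did any of the 6 Foxp3-positive CKO cells hold it, too few to limit a share usefully. In WT 1 of 6 Trdc-positive cycling T cells held Cdkn1a, with 1 UMI. Non-cycling Trdc-positive T cells held 0 Cdkn1a UMIs in WT and 16 in CKO, below the minimum level. Mdm2 was at 103 CPM in Cd4-positive CKO and 37.7 CPM in Cd4-positive WT cycling T cells, at 78.9 and 36.1 CPM in Cd8b1-positive ones, and at 45.2 and 29.5 CPM in Trdc-positive ones. The last value is 3 UMIs in 6 cells. The 4 Cd4-positive CKO cells with Cdkn1a held 4, 9, 1 and 2 of the 31 Mdm2 UMIs of their subset. Bax followed the same order of libraries in the Cd4-positive and Cd8b1-positive cells, at 210 and 140 CPM and at 306 and 151 CPM. In the Trdc-positive cells Bax was at 146 CPM in CKO and 167 CPM in WT.

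Other properties of the cycling T class differed between the libraries too. Trdc-positive cells were 31 of 98 in CKO and 6 of 217 in WT, and Foxp3-positive cells 6 and 30. All 7 NK cell markers were detected in both libraries, at 242 and 1388 CPM in sum, with Gzma at 161 and 1266 CPM. The B markers summed to 41.2 and 259 CPM, with Ms4a1 and Pax5 at 0 in CKO and Igkc at 220 CPM. Of 18 S phase genes 15 were at least 1.5-fold higher in CKO, and 2 of 18 G2 and mitosis genes, the latter near the 10.2% of all genes. Their part in the members' class-wide ratios was not tested. Without the cells with a Trdc UMI the ratio of Cdkn1a was 32.0, that of Phlda3 21.5 and that of the summed members 1.54. Within the 8 cells, Trdc was at 0 UMIs, B markers were at 38.2 CPM beside 281 CPM in the 90, and the 8 monocyte or macrophage markers had 1 UMI in all. Those cells were deeper, with a median of 13909 UMIs beside 11283, and ranged from 7027 to 26741. Cells scored as doublets had been left out.

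Without the cells that hold Cdkn1a, in both libraries, the summed ratio of the members in cycling T cells was 0.996. Cdkn1a is a member, and the CKO cells left out included those with the highest member levels, so this choice itself lowers the ratio. Of 18 measured members 2 were higher (Pmaip1 at 2.37 and Tigar at 1.67), where 9.22% of all genes were. The 7 lower ones (10.1% of all genes) were Ccng1 (0.577), Trp53inp1 (0.415), Zmat3 (0.625), Polk (0.640), Ercc5 (0.641), Plk3 (0.656) and Gadd45a (0.405). Phlda3 was then at 0.937, Aen at 0.914, Psrc1 at 0.386 and Mdm2 at 1.30. Pidd1, then below the minimum of 25 UMIs, was at 4.68. Without the CKO cell with the most member UMIs, Cdkn1a had a ratio of 14.3, Phlda3 one of 9.17, and the summed members one of 1.29, with 7 members higher (9.88% of all genes).

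Cdkn1a was also found outside the cycling T cells. In non-cycling T cells 18 cells of each library held it, with 36 UMIs in WT and 44 in CKO, of which 16 lay in 1 cell. Pmaip1 was higher in these cells than in the rest, 37.7-fold in WT (20.8 to 63.7) and 39.7-fold in CKO (22.4 to 67.1), whereas Phlda3 had 2 and 3 UMIs in them. The WT cells also held 527 UMIs of monocyte or macrophage markers, 2947 CPM against 21.8 CPM in the other WT T cells, while the CKO cells held 6 UMIs. In non-cycling B cells Cdkn1a had 12 UMIs in 10 WT cells and 101 UMIs in 36 CKO cells, a ratio of 3.20 (1.75 to 6.40) below the minimum level. The 36 CKO cells held 550 UMIs of monocyte or macrophage markers, 2409 CPM against 10.3 CPM in the other CKO B cells. The part of that cell type in the B cell ratio was not tested.

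In cycling B cells the members' ratios lay on both sides of 1. Of the 30 members 13 were measured, 3 higher in CKO (18.8% of all 6543 genes were) and 3 lower (12.8%), and the summed ratio was 0.806 (0.733 to 0.886). Cdkn1a had 3 UMIs in WT and 1 in CKO, and Phlda3 2 and 1. Mdm2 went from 73.4 CPM (WT) to 37.0 CPM (CKO), with a ratio of 0.503 (0.320 to 0.778). Fas had 54 UMIs in WT and 2 in CKO, a ratio of 0.0362 (0.00427 to 0.137), and Ercc5 was at 0.617 (0.273 to 1.34). The higher members were Sesn1 at 2.60 (1.31 to 5.55), Xpc at 2.20 (1.08 to 4.76) and Pmaip1 at 1.66 (0.718 to 4.06). Of the 18 S phase genes 11 were lower there, and of the 18 G2 and mitosis genes 14, where 12.8% of all genes were. Of the 6 plasma cell markers 5 were lower, and their sum went from 9498 CPM (WT) to 6219 CPM (CKO). Cd79a, a gene of the gate, was at 1313 and 2028 CPM. The part of these differences in the members' ratios was not tested.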

How the data were processed

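Per the labels' protocols, lymph node immune cells went through 10x Chromium 3′ capture (chemistry v3.1), 1 library per genotype. The authors deposited raw UMI counts for every gene and barcode. Cell Ranger 6.0.2 made them per the file headers, but version 5.0.0 stands in the submitters' processing notes, beside Seurat 4.0.3 and the build mm10, so which version was used is uncertain. The lowest barcode in either library held 500 UMIs.

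Filters of 500 UMIs, 200 genes and a mitochondrial share of 10% or less, together with doublet removal, left 11166 WT and 11804 CKO cells. Doublets were scored with Scrublet in Scanpy 1.11.5, and the highest-scoring 0.8% per 1000 barcodes were left out, 1304 and 1513 cells. T cells were split in the order Trdc, Foxp3, Cd4 without Cd8b1, and Cd8b1 without Cd4, each at 1 UMI or more. Cells meeting both the T and the B gate entered neither class.

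Class sums gave CPM with exact Poisson intervals. Ratios have exact conditional binomial intervals and shares exact Clopper-Pearson intervals, all at 95%. A share of 0 allows up to 3 counts of the total. Gene positions are those of GENCODE M21 on GRCm38, where 32158 of 32285 identifiers were found. The code was tested on simulated counts.

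The members, the gene lists and the gates were chosen with earlier results of these data known. All 30 members could be named, as could the 2 highest and 2 lowest measured genes of each other list in T, B or cycling T cells, Rpa1 to Rpa3, the gate genes, Trp53, Mdm4 and relatives of members that can share reads. Other names are given as chosen after their values were seen. Alternatives covered scaling, doublets, mitochondrial limit, gates, depth, weighting of cells, minimum level, fold and members.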

Additional observations from a re-analysis of the deposited data

Results flagged for a closer look

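Mdm2 differed in direction between the cycling classes. In cycling T cells its CKO over WT ratio was 1.80 (1.35 to 2.39) and in cycling B cells 0.503 (0.320 to 0.778). The difference itself was not tested, since each class has 1 library per genotype. In cycling T cells the ratio stayed between 1.30 and 2.36 over 13 alternatives that gave other values, and in cycling B cells at or above 0.356, and below 1, over 10.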

How the results depend on the processing

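No paired analysis was possible because each genotype has 1 library. Depth limits the list: 14 of the 30 were below the minimum level in non-cycling T cells and 8 in cycling T cells, and the cycling classes hold at most 217 cells. In cycling T cells the Cdkn1a ratio ranged from 14.3 to 32.0 and the Pidd1 ratio from 4.68 to 9.77. These ranges cover the alternatives that left a UMI of the gene in WT, also where it fell below the minimum level. For the values below that moved, the cause was not tested unless stated. Percentages in parentheses are the shares of all genes past the same fold in the same direction.

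In non-cycling T cells the summed ratio was 1.04 without ribosomal and mitochondrial genes in the totals, 1.03 with the median ratio set to 1 and 1.04 with subsets weighted alike. In T cells 1 member was lower among cells of 3000 to 8000 UMIs (1.11%), 2 were higher at 1 CPM (4.99%), and 1 was higher (7.48%) and 1 lower (3.24%) at the lower fold tried. In B cells 1 was lower with gates on thinned cells (0.904%), 1 was higher at 1 CPM (2.13%), and the summed ratio was 0.986 without immediate early, stress and mitotic members. Without thinning, 0.24% of WT and 0.524% of CKO T cells held Cdkn1a.

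In cycling T cells the summed ratio was 1.76 with gates on thinned cells, 0.994 at 3000 to 8000 UMIs and 1.29 as a mean over cells. At 3000 to 8000 UMIs 4 members could be measured, with 0 higher (14.0%) and 1 lower (14.2%). Of the 8 CKO cells with Cdkn1a, only the cell with 7027 UMIs lies in this range. At 20 CPM 4 were higher (7.27%) and 1 lower (4.47%). One was lower with gates on thinned cells (9.22%) and 1 without immediate early, stress and mitotic members (8.94%). In cycling B cells 0 were higher with gates on thinned cells (14.4%), 0 higher (20.4%) and 0 lower (16.6%) at 3000 to 8000 UMIs, with a summed ratio of 0.924, 5 lower as a mean over cells (19.0%) and 6 lower at the lower fold tried (23.9%).

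Reversed with gates on thinned cells were Pmaip1 (0.630) and Ercc5 (1.26) in cycling B cells. At 3000 to 8000 UMIs these were Pmaip1 (0), Psrc1 (0) and Plk3 (1.78) in cycling T cells and Pmaip1 (0.178) in cycling B cells. As a mean over cells it was Pmaip1 (0.941) in cycling B cells. Such ratios are given also for members that fell below the minimum level under the alternative. At 3000 to 8000 UMIs only 4 members reached it in cycling T cells and 2 in cycling B cells, so these reversals can rest on few UMIs.

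The next alternatives were chosen after seeing the data. Without cells holding Cdkn1a the summed ratio in cycling T cells was 0.996, with 2 members higher (9.22%) and 7 lower (10.1%). Phlda3 (0.937), Aen (0.914) and Psrc1 (0.386) then reversed. The cells left out were picked by a member, which itself lowers this ratio. The summed ratio was 1.54 without cells holding Trdc and 1.29 without the CKO cell with the most member UMIs. With a cycling gate of 4 UMIs it was 1.62, with 13 higher (11.0%) and 1 lower (7.78%), and in cycling B cells 1.05, with 0 higher (12.7%). With the minimum level applied to WT alone 5 members were higher in cycling T cells (9.27%).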
